A study of Mus musculus with 12 samples.

Results

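In C2C12 cells, a mouse line of muscle precursors (myoblasts) that fuse into myotubes when serum is withdrawn, 1789 of the 19206 H3K4me3 peaks of day 0 on chromosomes 1 to 19 and X overlapped, by 1 bp or more, no H3K4me3 peak of day 1, of day 5 myotubes or of day 5 reserve cells. These 1789 peaks, called day 0-only peaks here, are 9.31% of the day 0 list and are the subject of what follows. They were chosen by the calls of the 4 H3K4me3 lists, so their absence from the later lists is their definition and not a result. The study profiled H3K4me3, the protein MBD2 and a control IgG by CUT&RUN, in which an antibody tethers a nuclease that cuts out the chromatin it is bound to. Cells were sampled before differentiation (day 0) and 1 and 5 days into differentiation in medium with 2% horse serum. On day 5 a mild trypsin treatment separated the myotubes from the reserve cells, the mononucleated cells that had not fused. All groups are C2C12 cells, and each antibody and cell state had 1 library, so no value below could be checked in a replicate and no test was made.

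Trimethylation of lysine 4 of histone H3 (H3K4me3) marks the nucleosomes beside the start sites of active and poised genes, where it forms broad and strong peaks. Weaker H3K4me3 also occurs at active enhancers, distal elements bound by transcription factors such as the Fos and Jun proteins, which pair to form AP-1 and recognise TGANTCA. MBD2 binds methylated CpG dinucleotides and belongs to the NuRD complex, which remodels nucleosomes and removes histone acetylation. Day 0 cells are myoblasts, before genes of the contractile apparatus are switched on.

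The promoter marks of day 0 matched the labelled cell type. Myod1, Myf5, Des and Pax7, genes of the muscle lineage, carried H3K4me3 within 1 kb of a start in all 4 libraries, and Myog, Myh3 and Ckm, genes of differentiating muscle, had none at day 0. Ptprc, Cd68, Pecam1, Cdh5, Alb, Epcam, Cdh1 and Krt5, markers of blood, vessel, liver and epithelium, had none at day 0. Of these, Pecam1 was marked at day 1, and Cd68 and Cdh1 in myotubes. H3K4me3 peaks numbered 19206 (day 0), 17653 (day 1), 26024 (myotubes) and 15910 (reserve cells). The lowest local background of each list, which stands in for depth because the sources used here state no read totals, was 1.47, 1.25, 1.22 and 1.08 fragments per base in the same groups. MBD2 peaks numbered 14941, 452, 287 and 111 in the same groups. Taken list by list, 16.3% of day 0 peaks overlapped no day 1 peak, 15.7% no myotube peak and 24.8% no reserve cell peak.

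The 4 windows of 300 bases printed here, around the point of highest signal (the summit) of day 0-only peaks, are chosen examples and not typical ones. Their fold enrichment over local background was 8.95, 10.1, 8.90 and 14.6 in the order printed. The median over all day 0-only peaks was 4.45. All are the plus strand of mm10, read from the GRCm38 reference sequence. The first 3 were taken by rule as the strongest members of their kind with the AP-1 sequence TGAGTCA on either strand, which is in capitals. The first, chr11:95085832-95086131, lies between genes near the integrin gene Itga3. The second, chr1:45495202-45495501, lies in an intron of the collagen gene Col5a2 and holds the motif 2 times. The third, chr5:36461418-36461717, lies in an intron, 3430 bp upstream of the start of Grpel1, and overlapped a day 0 MBD2 peak.
Itga3: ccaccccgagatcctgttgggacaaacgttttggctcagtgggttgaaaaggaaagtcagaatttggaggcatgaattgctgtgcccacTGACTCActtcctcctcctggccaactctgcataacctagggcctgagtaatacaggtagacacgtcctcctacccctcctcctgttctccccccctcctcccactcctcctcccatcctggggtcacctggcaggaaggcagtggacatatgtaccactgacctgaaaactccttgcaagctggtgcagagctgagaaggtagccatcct
Col5a2: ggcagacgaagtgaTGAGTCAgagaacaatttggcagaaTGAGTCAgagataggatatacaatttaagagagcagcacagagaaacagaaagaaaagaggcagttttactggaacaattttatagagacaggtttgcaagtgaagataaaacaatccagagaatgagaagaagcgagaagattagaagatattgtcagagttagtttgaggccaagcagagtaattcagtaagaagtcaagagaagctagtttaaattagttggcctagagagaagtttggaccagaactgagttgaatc
Grpel1: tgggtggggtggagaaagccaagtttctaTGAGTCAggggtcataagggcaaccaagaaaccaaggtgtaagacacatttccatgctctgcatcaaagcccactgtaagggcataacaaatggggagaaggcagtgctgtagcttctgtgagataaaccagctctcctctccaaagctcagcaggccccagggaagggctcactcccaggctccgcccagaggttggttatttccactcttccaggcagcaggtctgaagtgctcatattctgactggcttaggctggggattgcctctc
The other window has each CG dinucleotide in capitals, the site that MBD2 can bind when methylated. This window, chr4:63753203-63753502, lies between genes near Tnfsf15, was under an MBD2 peak and holds 6 CG. It had the highest MBD2 fold of the 8 strongest non-promoter members with MBD2.
Tnfsf15: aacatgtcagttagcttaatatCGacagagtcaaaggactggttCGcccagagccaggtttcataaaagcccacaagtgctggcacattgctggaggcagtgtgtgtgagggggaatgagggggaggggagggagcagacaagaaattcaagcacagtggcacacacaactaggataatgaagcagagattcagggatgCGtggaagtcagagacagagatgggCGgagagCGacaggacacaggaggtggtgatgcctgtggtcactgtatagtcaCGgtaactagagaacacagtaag

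Day 0-only peaks were weak and narrow members of their list. Their fold enrichment, the pileup of fragments at the summit over the local background as the authors' peak caller gave it, had a median of 4.45 and ranged from 2.48 to 15.4. The other 17417 day 0 peaks, each found in at least 1 later list, had a median fold of 33.6. The median pileup of the day 0-only peaks was 11 fragments, against 113 for the others and a lowest pileup of 7 in the list. Their median width was 397 bp, from 229 to 2659 bp, against 2124 bp for the others. A peak of this height is close to the least that was called, and in peak lists a mark that is gone and a mark that fell below the caller's limit cannot be told apart.

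The share of day 0 peaks without a later partner fell step by step with strength. It was 42.6% (95% exact Clopper-Pearson interval 39.7 to 45.5) of the 1179 peaks with a fold of up to 4. It was 29.96% of those between 5 and 6, 18.2% of those between 6 and 8 and 5.53% of those between 8 and 12. Between 12 and 20 it was 13 of 1478 peaks, and above 20 it was 0 of 10985, for which the exact interval reaches 0.0336% (0.0273% when the limit is taken as 3 counts). So no day 0 peak with a fold above 20 was without a later partner, and intervals here and below cover counting error only.

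**Figure D1:**
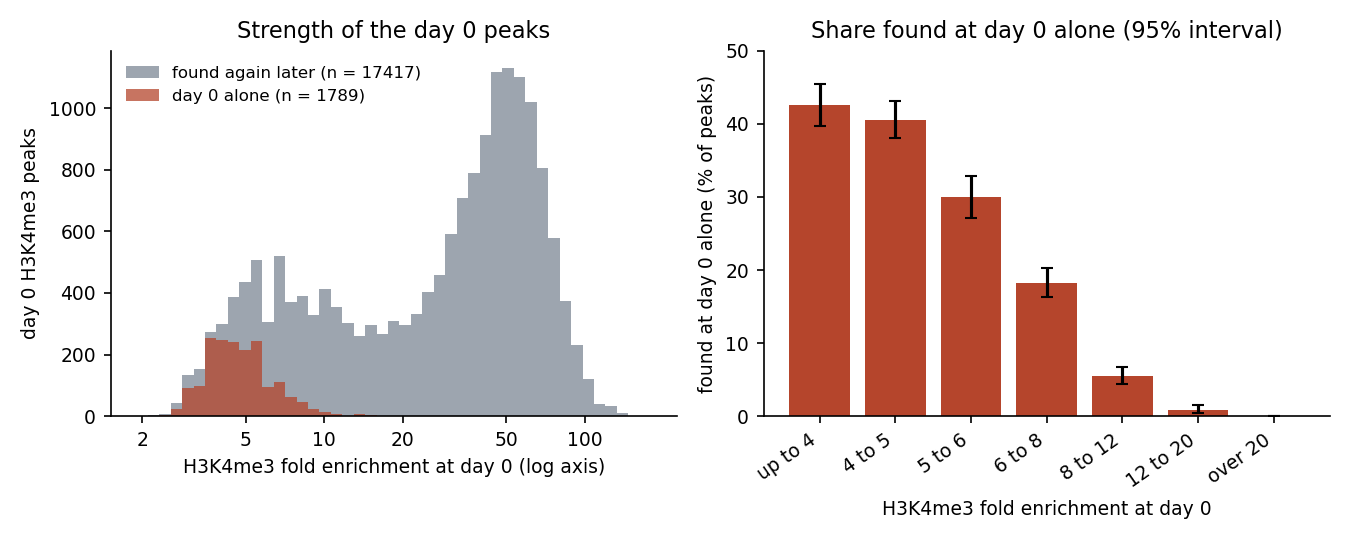
Left, number of day 0 H3K4me3 peaks (vertical axis) by fold enrichment at day 0 (horizontal log axis), with the 1789 day 0-only peaks in red and the 17417 peaks found again in grey, drawn over each other from 0. Right, percentage of day 0 peaks in each fold class that were day 0-only, with exact 95% intervals as bars; the share falls from 42.6% in the lowest class to 0 above a fold of 20.

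The boundary of the rule is thin for some peaks. Just inside it, an intronic peak whose nearest coding start was that of Ywhaz (fold 3.703) abutted a later peak at 0 bp, and peaks between genes near Dok7 (3.46) and Nutf2 (4.05) lay 1 bp from one. Just outside it, a peak in an intron of Msi2 (5.59) shared 2 bp with a later peak and one at a promoter, nearest Kremen1 (3.74), shared 3 bp. In all, 309 of the 1789 (17.3%) had a later peak within 1 kb, while 887 (49.6%) had none within 10 kb and 224 (12.5%) none within 100 kb. The nearest later peak was most often of the myotube list (874 members) or the day 1 list (788), and of the reserve cell list for 160, with ties counted for each list. Another day 0 peak lay within 1 kb of 363 members (20.3%).

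Most day 0-only peaks lay away from gene starts. By the GENCODE M21 annotation, 226 (12.6%, 11.1 to 14.3) overlapped the 1 kb either side of a transcript start, against 64.8% of all day 0 peaks and 70.2% of the peaks found again. Introns held 851 (47.6%, 45.2 to 49.9), regions between genes 653 (36.5%, 34.3 to 38.8) and exons 59 (3.30%). The median distance from summit to the nearest protein-coding start was 20486 bp, and 63.8% lay more than 10 kb from one, against 23.9% of the others.

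Weak peaks are rarer at promoters in general, so the places were also set beside those of other weak peaks. Among peaks with a fold of up to 8, promoters held 12.3% (10.7 to 13.9) of the 1689 day 0-only peaks and 23.4% (22.0 to 24.8) of the 3480 found again. Regions between genes held 36.6% and 28.6%, and introns 47.8% and 44.8%. Under this limit the promoter share was therefore lower in the day 0-only peaks, with intervals that do not overlap. The intervals for introns (45.4 to 50.3 and 43.1 to 46.5) do overlap. The limit does not match strength. Under it the median fold at promoters was 4.45 in day 0-only peaks and 5.46 in peaks found again. Away from promoters these medians were 4.45 and 5.13. The 679 day 0 peaks shared with day 1 alone had 24.9% at promoters and the 1054 shared with myotubes alone 13.6% (11.6 to 15.8), the latter overlapping the interval of the day 0-only peaks.

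**Figure D2:**
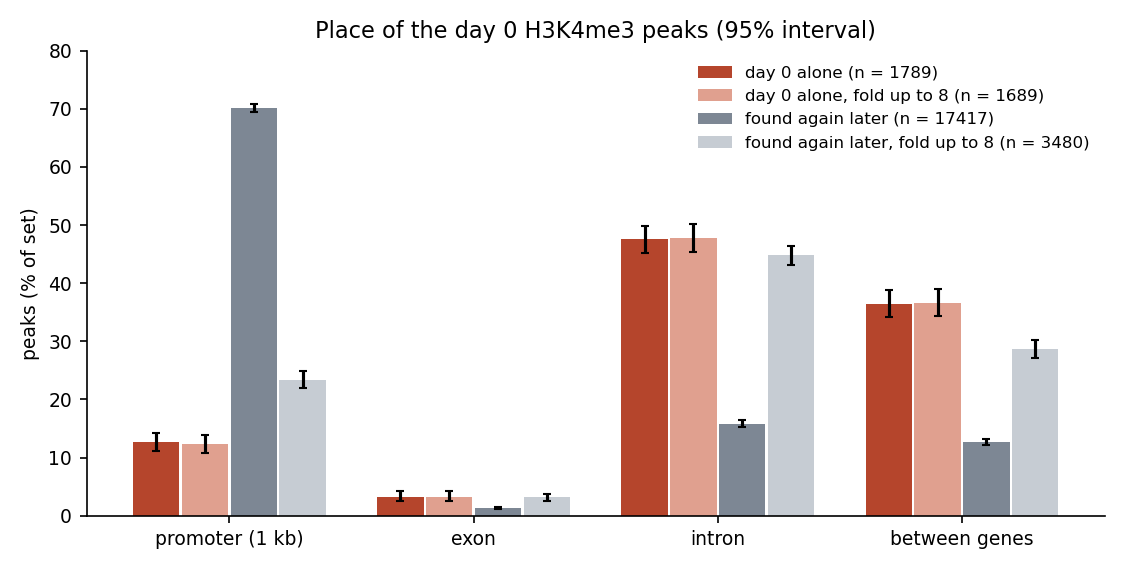
Percentage of each set of day 0 H3K4me3 peaks (vertical axis) by place (horizontal axis), for day 0-only peaks and peaks found again, all and with a fold of up to 8, with exact 95% intervals. At promoters the day 0-only peaks stand at 12.6% (12.3% with a fold of up to 8) and the peaks found again at 70.2% (23.4%).

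The share of day 0-only peaks among day 0 peaks ranged over chromosomes from 6.32% on 19 to 12.3% on 1, and was 6.74% on X.

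At promoters, the 226 peaks touched the starts of 247 genes, 142 of them protein-coding, 31 antisense transcripts, 27 lincRNAs and 17 processed pseudogenes. For 186 of the 247 no later library had a peak at any start of the gene, among them 100 of the 142 coding genes. Over the whole annotation, 1.6% of the 15829 genes marked at day 0, and 0.943% of the 12402 coding ones, had no promoter peak in any later list. The other genes had a promoter peak in at least 1 later library.

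Among the strongest promoter members of coding genes was that of Caly, which encodes a vesicle protein of neurons, with a fold of 10.9 and an MBD2 peak of fold 5.88. Its summit lay 1414 bp downstream of the start, since promoter members were placed by overlap of the peak and not by summit. Adam8, a membrane-anchored metalloprotease, had a fold of 10.1 over 1071 bp. Neither gene had a promoter peak in a later library.

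Cthrc1, a secreted protein with a collagen-like repeat, had a fold of 8.22 over 1815 bp. Slc7a11, the cystine and glutamate exchanger that feeds glutathione synthesis, had 8.09 over 1634 bp and its nearest later peak at 336012 bp. Serpinb2, a serpin that inhibits plasminogen activators, had 6.88 over 1135 bp. These 3 members were wider than the median promoter member, 435.5 bp, and also stronger than its median fold of 4.48. Adgra1, an adhesion G protein-coupled receptor, had 7.69, Etnk2, an ethanolamine kinase, 7.57, and the lincRNA D14Ertd670e 9.30, with its summit 1015 bp from the start. No later promoter peak was called at any of these 6 genes either.

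By contrast, the members at Ptpre (fold 10.1), a protein tyrosine phosphatase, and Pde4d (6.79), a cyclic AMP phosphodiesterase, marked 1 of several starts, and both genes kept another marked start in all 3 later libraries. The member at Plek2 (7.28, with MBD2 at 5.73) had its summit 1205 bp upstream of the start and a later peak 279 bp away. That gene was marked in myotubes and reserve cells but not at day 1. A day 0-only peak at a promoter is thus not the same as a gene without the mark later.

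Promoter members at genes not annotated as protein-coding reached higher folds. The strongest 3 were those of Gm536 (a lincRNA, 14.6, summit 1054 bp from the start), Gm9845 (a processed pseudogene, 14.1) and 9430053O09Rik (13.3). Of these, 9430053O09Rik had a promoter peak in myotubes. A processed pseudogene is a near copy of its parent gene, so how the authors placed reads that match both could set its value, and the sources used here do not state it. Further coding genes without a later promoter peak, named after their values were seen, were Calca (6.47), the precursor of calcitonin and of a vasodilator peptide, and Hapln1 (6.07), a link protein of the matrix. Among them were also Eya2 (5.95), a transcriptional cofactor in muscle formation, Itga2 (5.73), an integrin subunit, Cnn1 (5.06), a calponin of smooth muscle, and Myocd (4.45), a cofactor of serum response factor. The proliferin genes Prl2c2 (6.11) and Prl2c3 (5.21) also belong here, but they are close paralogs and reads could be split between them.

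Some promoter members were neighbours. On chromosome 7, from the Adgra1 to the Caly member (139833608 to 140081271, 248 kb), 4 of 8 day 0 peaks were day 0-only, at Adgra1, in an exon of Kndc1 (8.50), at Adam8 and at Caly. Their local background was 1.47, the lowest of the list, and 1 of the 4 had MBD2. A second group on the same chromosome, from Calca through Calcb (5.26) to Insc (4.48), spanned 110 kb and held 3 day 0 peaks, all day 0-only and all at promoters.

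Of the day 0-only peaks in introns, the strongest was in Zzef1, a zinc finger gene, at 15.3 over 1882 bp at 51983 bp from its start, with MBD2 at 6.78. Acsbg1, an acyl-CoA synthetase gene, held the widest of all members, 2659 bp with a fold of 14.1 and MBD2 at 7.35. An intron of Col5a2, a fibrillar collagen, held the member of 10.1 printed above. Cdc42bpa, a kinase acting on the actin cytoskeleton, held one of 10.1 with MBD2 at 10.3. Runx1, a transcription factor of blood formation, held a wide intronic member (2065 bp, 6.27) with MBD2 at 7.89. The other intronic peaks among the strongest had folds from 9.71 to 13.4.

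Between genes, the strongest member of all had a fold of 15.4 over 731 bp and lay 63599 bp upstream of the nearest coding start, that of Got2. The member near Tnfsf15, a TNF family cytokine, had a fold of 14.6, lay 8240 bp upstream of its start and carried MBD2 at 22.9. The member near Insig2 had 14.4, and that near Slc16a11 14.1 over 2203 bp with MBD2 at 9.56. Of the 12 strongest between genes, a CpG ratio (observed over expected from base composition) above 0.6 was found at those near Got2 (1.08), Nkx3-2 (0.953), Insig2 (0.814) and Gpx5 (0.735), and none of these had MBD2. At the member 64593 bp upstream of Dlg1, a scaffold protein of cell polarity, H3K4me3 was 10.5 and MBD2 14.3 at day 0, and MBD2 was found again at day 1 at 4.49, with no MBD2 peak in myotubes or reserve cells.

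**Figure D3:**
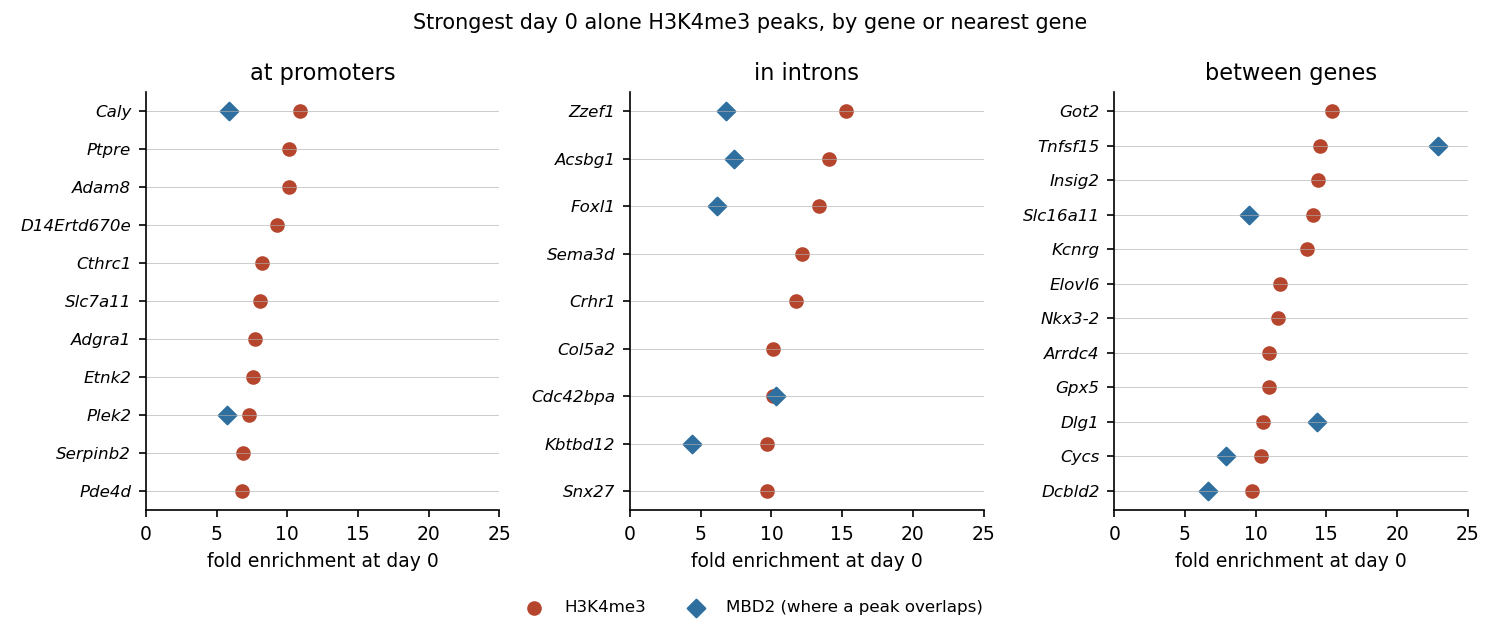
H3K4me3 fold enrichment at day 0 (red circles, horizontal axis) of the strongest day 0-only peaks at promoters, in introns and between genes, each on the row of the gene at that promoter or the nearest coding gene, with the MBD2 fold at day 0 as blue diamonds where an MBD2 peak overlaps; members on chromosome 18 and those not reported here are left out. The Tnfsf15, Dlg1 and Cdc42bpa members are the ones whose MBD2 fold (22.9, 14.3 and 10.3) exceeds their H3K4me3 fold.

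Members were mostly single when those within 100 kb of the nearest coding start were counted. Of the coding genes nearest to any of these, 1135 had 1, 145 had 2, 18 had 3, 5 had 4, 3 had 5 and 1 had 6. The 4 nearest Slc16a11 lay in 11122 bp and all overlapped MBD2 peaks, of folds 20.1, 16.5, 9.56 and 9.56, against H3K4me3 folds of 2.66, 4.05, 3.13 and 14.1. The last 2 of them shared 1 MBD2 fold value and lay 341 bp apart. Spp1, which encodes the matrix protein osteopontin, had 4, of which 3 overlapped MBD2, and Lurap1l, Pde4d and Crybg1 also had 4, and Zmiz1 5. All 3 members in introns of the integrin gene Itgb3 overlapped MBD2.

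The highest count was the 6 nearest Hrh1. All of these but the promoter member, and the 5 nearest Atg7, lay in a stretch where the local background was often high. In 500 kb of chromosome 6 (114500000 to 114999999) lay 12 members among 36 day 0 peaks, while no other such stretch held more than 6 members. The local background of those 12 ranged from 1.47 to 8.49 fragments per base, with a median of 3.39, and was above 3 in 8 of them. The median over all members was 1.47. Of the 12, 2 had MBD2. The part of the background in these calls was not tested, and without the stretch there were 1777 members, and the place shares, the MBD2 share and the median fold stayed within their intervals.

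Gene lists by function, chosen with earlier results of these data known, were counted by the coding genes that were nearest, within 100 kb, to a non-promoter member. Over all coding genes this was 1125 of 21728, or 5.18%, and 14.9% were nearest to a non-promoter peak that was found again. Of 89 genes of the extracellular matrix and its enzymes, 13 (14.6%) were nearest to 19 members, and 30.3% to peaks found again. They included Col5a2, the basement membrane collagen Col4a1 (6.88, MBD2 10.3), Spp1 and the urokinase gene Plau (6.07). Of 59 genes of the actin cytoskeleton and adhesion, 11 (18.6%) were nearest to 18 members, and 40.7% to peaks found again. They included Itga3 (8.95), Ncam1 (8.09, MBD2 8.09), Cdh6 (7.69) and Itgb3 (6.88, MBD2 5.15).

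Of 29 AP-1 and immediate early genes, 7 (24.1%) were nearest to 8 members, and 62.1% to peaks found again. Members lay 64549 bp from Phlda1 (7.28, MBD2 14.7), 46360 bp upstream of Fosl2 (6.12, MBD2 4.47) and 7418 bp downstream of the start of Klf6 (6.07). A promoter member, not counted here, marked the antisense transcript Junos (6.07), 46857 bp upstream of the start of Jun. Of 39 cytokine, chemokine and receptor genes, 8 (20.5%) had members, among them Lif (6.71, MBD2 7.35), Tnfrsf1b (6.07), Il4ra (5.66), Il6st (5.51) and Il1r1 (5.26, MBD2 6.45). Of 17 TEAD and YAP target genes 4 did, among them Ccn2 (5.39, with MBD2 at 15.1), Ptpn14 (4.76, with MBD2 at 18.1) and Tead1 (7.28, MBD2 5.88). In each of these lists the share was above that of all coding genes both for the members and for the peaks found again.

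Genes of mature muscle, the cell cycle, ion channels and Hox clusters stood near or below the share of all coding genes for the members. For the peaks found again they stood above its 14.9%, at 18.75%, 19.6%, 23.1% and 15.4% in the same order. Of 48 sarcomere and contraction genes 1 (2.08%) had members, Tnnt2 with 2, of which the stronger (4.02) overlapped MBD2 at 10.3. Of 51 cell cycle and DNA replication genes 3 (5.88%) did, all under a fold of 5: Cdc25a (4.45), Ccnd2 (4.05) and Aurka (3.24). None of 39 ion channel and neurotransmitter receptor genes and none of 39 Hox genes was nearest to a non-promoter member, though Hoxb5 had a promoter member of 3.13. The remaining lists ranged more widely. Of 21 myogenic regulators 4 did (19.05%, and 52.4% were nearest to peaks found again), with Twist1 (7.69), Pax3 (4.44) and Twist2 (2.88) among them. The share was 6 of 32 (18.8%, and 34.4% for peaks found again) for fat, bone and cartilage genes and 5 of 29 (17.2% and 62.1%) for satellite cell and quiescence genes. It was 7 of 49 (14.3% and 34.7%) for TGF-beta and BMP genes, 6 of 49 (12.2% and 34.7%) for growth factors and receptor kinases and 6 of 55 (10.9% and 45.5%) for axon guidance genes. It was 2 of 23 (8.70% and 47.8%) for Notch, 2 of 26 (7.69% and 23.1%) for neuronal identity and 2 of 52 (3.85% and 21.2%) for Wnt genes. The fat, bone and cartilage genes included Zfp423 (7.28), Runx1 and Runx2 (5.44, with MBD2 at 14.0).

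MBD2 overlapped 532 of the day 0-only peaks at day 0 (29.7%, 27.6 to 31.9), against 25.8% of all day 0 peaks and 25.4% of the peaks found again. Since MBD2 and H3K4me3 overlap less often at promoters, the comparison differs by place. Away from promoters 500 of 1563 members had MBD2 (32.0%, 29.7 to 34.4), near the 34.7% of all such peaks, and the peaks found again had 35.5% (34.2 to 36.8). At promoters 32 of 226 members had it (14.2%, 9.89 to 19.4), against 21% of all such peaks, and 21.1% of those found again. Among promoter peaks with a fold of up to 8 the values were 14.5% and 11.7% (9.55 to 14.1), with overlapping intervals. These comparisons depend on how overlap is counted, since peaks found again are wider and offer more bases to overlap. When an MBD2 peak had to reach within 150 bp of the H3K4me3 summit, the order turned in both places. Away from promoters the share was then 29.8% (27.6 to 32.2) in members and 27.0% (25.8 to 28.2) in peaks found again, with overlapping intervals. At promoters it was 11.5% (7.65 to 16.4) and 6.10% (5.69 to 6.54), with intervals that do not overlap, and over all places 27.5% and 12.3%. No limit on fold was set in this summit comparison. The promoter sets it compares had median folds of 4.48 and 44.8 and median widths of 435.5 and 2573.5 bp, so they are not alike in strength.

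Width moved with MBD2. Members away from promoters and up to 300 bp wide had MBD2 in 26.1% (21.8 to 30.7), those of 600 to 1000 bp in 40.6% (34.8 to 46.7) and the 66 of 1000 to 3000 bp in 62.1% (49.3 to 73.8). The peaks found again had 25.5%, 34.5% and 42.2% (40.0 to 44.4) in the same classes. The widest members were thus under MBD2 more often than equally wide peaks found again, with intervals that do not overlap, and these classes were among 5 compared.

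In members where both were present, the MBD2 fold was usually above the H3K4me3 fold. The H3K4me3 folds of members are low, so this order is not a sign of strong MBD2. Where more than 1 MBD2 peak overlapped, the strongest was taken. The MBD2 fold over the 532 members had a median of 7.35 and ranged from 3.39 to 41.2, against a median of 5.88 for the whole MBD2 list, and in 436 of them it exceeded the H3K4me3 fold. The folds are ratios to 2 different local backgrounds and are set side by side as a description. Over non-promoter peaks found again that had MBD2, the order of the medians was the other way, 6.62 for MBD2 and 7.99 for H3K4me3. For non-promoter members with MBD2 these medians were 7.35 and 4.81. The summits of the 2 peaks lay a median of 212.5 bp apart in the members and were within 150 bp in 200 of the 532. In the later libraries, whose MBD2 lists were short, 13 members had MBD2, of which 11 had it at day 1 and 11 had it at day 0.

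The AP-1 type sequence TGANTCA, which is the same on both strands, was in 310 of the 1563 non-promoter summit windows of 300 bases (19.8%, 17.9 to 21.9). Of the 19206 windows of all day 0 peaks 8.04% held it, and of the non-promoter windows found again 12.5% (11.6 to 13.4). Among non-promoter peaks with a fold of up to 8 the shares were 20.2% (18.2 to 22.3) and 14.7% (13.4 to 16.1), so the gap was also there under this limit. By fold class it was 17.9% against 17.2% up to 4, 20.8% against 14.2% from 4 to 5, 21.2% against 13.5% from 5 to 6 and 21.9% against 14.4% from 6 to 8. From 8 to 12 it was 15.3% against 12.5%, and from 12 to 20 none of 9 members against 10.9%. Of these classes only that from 4 to 5 had intervals that do not overlap. The peaks shared with day 1 alone had 12.4% (9.62 to 15.5) and those shared with myotubes alone 16.7% (14.3 to 19.3), the latter overlapping the interval of the members.

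Introns had the motif in 21.5% of member windows and regions between genes in 17.2%, against 14.4% and 10.6% of the windows found again. The narrower TGAGTCA, a subset of TGANTCA searched on both strands and added after the first results were seen, was in 14.8% of the non-promoter member windows and 8.95% of those found again. All day 0 windows had it in 5.62%. Of the 310 member windows with TGANTCA, 160 (51.6%) held it in the central 200 bases, which are 66.7% of the window, and for the peaks found again this was 51.1%. The motif thus lay toward the edges of the window in both sets alike.

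Motif and MBD2 went together. Of the 500 non-promoter members with MBD2, 27.4% (23.5 to 31.5) held TGANTCA, and of the 1063 without MBD2 16.3% (14.1 to 18.6). The peaks found again showed the same order at lower levels, 16.6% (14.9 to 18.4) with MBD2 and 10.3% (9.26 to 11.3) without. Members with MBD2 were the set with the highest share of the 4, and the Grpel1 window printed above is one of them. A match is a sequence and says nothing of a bound factor.

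**Figure D4:**
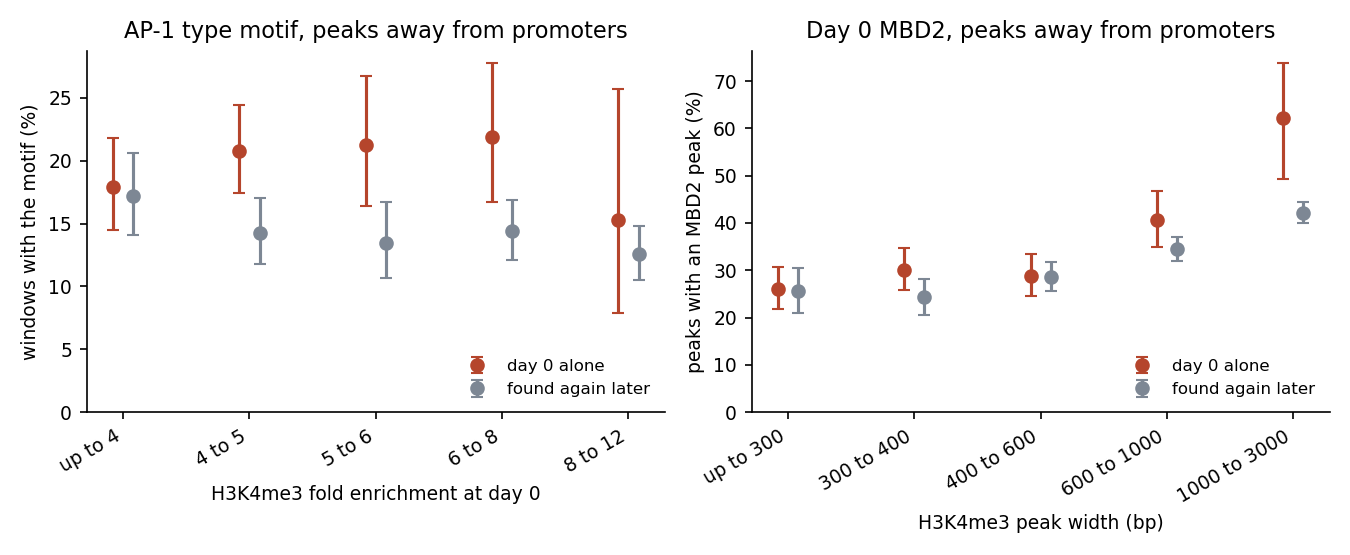
Left, percentage of 300-base summit windows away from promoters that hold TGANTCA (vertical axis) by H3K4me3 fold class (horizontal axis). Right, percentage of peaks away from promoters that overlap a day 0 MBD2 peak by H3K4me3 width class in bp. Red points are day 0-only peaks, grey points peaks found again, bars exact 95% intervals; the widest class stands at 62.1% and 42.2% for MBD2, and the classes from 4 to 8 at 20.8 to 21.9% and 13.5 to 14.4% for the motif.

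Other motifs, searched on both strands, did not all follow. CAGCTG, the E-box that MYOD and myogenin bind, was in 17.98% (16.1 to 19.97) of non-promoter member windows and 21.2% (20.1 to 22.4) of those found again, and in 17.1% of all day 0 windows. GGGCGG, bound by SP and KLF factors, was in 8.45% and 17.2%, and in 28.1% of all. CATTCC, bound by TEAD factors, was in 17.9% and 17.4%, and in 14.7% of all. TGTGGT, bound by RUNX factors, was in 22.8% and 21.6%, CCAAT, bound by NF-Y, in 30.3% and 27.9%, and CCGGAA, bound by ETS factors, in 4.48% and 6.56%, and all day 0 windows had these in 16.5%, 27% and 10.8%. So the AP-1 type sequence was more frequent in the members than in the peaks found again. The GC-rich GGGCGG, the E-box CAGCTG and CCGGAA were less frequent, and those of TEAD and RUNX factors were about as frequent. Unlike TGANTCA, these other motifs are not compared here under a limit on fold.

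The members were poor in CpG. Away from promoters the CpG ratio had a median of 0.241 (quartiles 0.147 and 0.365), against 0.319 for peaks found again and 0.268 for those of a fold of up to 8. It was 0.249 for non-promoter peaks shared with day 1 alone and 0.252 for those shared with myotubes alone. A low ratio was therefore not particular to the members. The median GC content was 47.3% and 50.7%. At promoters the median ratio was 0.383 for members and 0.576 for peaks found again, and 29.6% of member promoters had a ratio of at least 0.6, against 46.6%. Among promoter peaks with a fold of up to 8 these shares were 31.9% and 41.3%. Non-promoter members with MBD2 had a median ratio of 0.219 and those without 0.251, and a ratio of at least 0.6 was found in 1.4% and 8.37%. Non-promoter peaks found again had the same order, with medians of 0.282 and 0.344 and shares of 7.58% and 18.4%. So the members under MBD2 were not the CpG-dense ones, and whether their CpG sites were methylated was not measured here. Repeat-masked bases made up a median of 14.0% of the non-promoter member windows and 10% of those found again.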

How the data were processed

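CUT&RUN libraries of 12 samples (4 cell states, 3 antibodies, 1 library each) were considered, and the 4 IgG libraries were not analysed here. The authors trimmed, aligned to mm10, filtered and called peaks with Trim Galore, Bowtie2, SAMtools and MACS2, per the submitters' processing notes. The sources used here state no versions, MACS2 settings or later filters, nor whether IgG was the control. A deposited list covers 1 library, with the pileup, a coverage signal in fragments, and the fold enrichment, a ratio to local background, per the file headers. The −log10 p-value and the −log10 q-value, also as deposited, have damaged names in the file headers and were told from the usual MACS2 column order. All of these are the authors' values, used to describe or rank peaks of the same list.

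Intervals were compared in Python 3.11.15 with pandas 2.3.3, numpy 2.4.6 and scipy 1.17.1, and the code was tested on simulated intervals. Peaks on chromosomes 1 to 19 and X were used. A promoter is 1 kb either side of any transcript start of GENCODE M21 (53843 genes, 21755 protein-coding), and exon, intron or intergenic was then assigned by the summit. Sequence came from GRCm38 with pysam 0.24.0, and every peak lay within the reference chromosomes. Local background is (pileup + 1)/fold − 1. Shares have exact Clopper-Pearson 95% intervals, without correction for the number of shares compared. No test was run, as each group has 1 library. The members, lists and motifs were chosen with earlier results of these data known. Named peaks were the 12 of highest fold at promoters of named genes, in introns and between genes, the 5 widest, the 8 strongest with MBD2 at promoters and elsewhere, the genes with most members, and up to 5 genes per list, less those on chromosome 18 and some that are not reported here. The number of members, their place and MBD2 shares, their median fold and the TGANTCA share were recomputed under the alternatives of the closing section, and the other values were not.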

Additional observations from a re-analysis of the deposited data

How the results depend on the processing

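The 7 values below were recomputed under 19 other settings, 65 values in all, of which 42 stayed within 1.5 times the count or within the 95% interval of the share or median. The number of members was 1789. It was 0 when the list was limited to its 9603 strongest peaks by −log10 q, and 0 when limited to peaks at or above the median fold, so no share could be given for either. With the 15910 strongest peaks of every list it was 821, with promoter, intron and MBD2 shares of 15.7%, 44.6% and 35.1% and a median fold of 6.88. Leaving the myotube list out of the rule gave 2843 members. Leaving out day 1 gave a promoter share of 16.0% and a median fold of 4.85, and the rule that later peaks cover less than 50% of the day 0 peak gave 14.6% and 4.85. The median fold was 4.67 with no later peak within 1 kb, and 4.70 with day 0 peaks within 1 kb joined, which had MBD2 in 32.8%. The promoter share was 9.11% within 500 bp, 25.2% within 3 kb and 7.71% for protein-coding starts. The MBD2 share was 27.5% within 150 bp of the summit, 36.6% within 1 kb and 20.3% for the stronger MBD2 peaks. Within 150 bp of the summit it was 12.3% of peaks found again. With no limit on fold, the order turned there at promoters and away from them. The TGANTCA share was 10.2% within 100 bp of the summit (6.39% of peaks found again), and TGAGTCA alone, added after seeing the data, gave 14.8%. Leaving out the chromosome 6 stretch, also added after seeing the data, moved none of the 6 values recomputed without it.

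No paired analysis was possible because each cell state and antibody had 1 library. Depth limits every absence: members had few fragments, the sources used here state no read totals, and a peak below the caller's limit in a later library counts as absent. The lists differ in length, and the equal-length setting above shows how far the membership moves with it.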
